A study of Homo sapiens with 8 samples.

Results

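In CAKI1, a long-established line of human renal carcinoma cells, 10 genes of iron uptake, storage, export, sensing and heme breakdown were described after stimulation with iron-loaded lipocalin-2. They were chosen by name (FTL, FTH1, TFRC, SLC40A1, NCOA4, IREB2, ACO1, SLC11A2, HMOX1 and ERFE), and all 10 were found among the 16782 genes of the deposited table. Earlier results of these data were known when the 10 genes were chosen. Cells in both groups were starved of serum for 24 h beforehand. In one group they then received holo-Lcn-2 (hLcn-2), the iron-carrying form of lipocalin-2, at 5 µg/mL for 24 h, and in the other group they stayed unstimulated. Each group held 4 samples, numbered N1 to N4, of total RNA sequenced from the 3′ end of the transcripts. The samples are of a single cell line, and the labels do not say whether equal numbers mark one culture or day, so that p-values measure the spread between these samples.

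Of the 10 genes, ERFE differed most clearly between the groups: it was higher in each hLcn-2 sample than in any control, at 1.88 times the control mean. It rested on 9 to 87 reads per sample, and its adjusted p was 0.9999 in limma without pairing by number. Of all genes tested, 0.891% were likewise higher after hLcn-2 without overlap. ACO1 and FTL were higher in hLcn-2 samples in 4 of 4 same-numbered pairs, by a smaller margin. Over all genes tested, 9.93% were higher in 4 of 4 pairs. TFRC, NCOA4, IREB2 and SLC11A2 had hLcn-2 means of 0.967 to 1.04 times the control means. FTH1 was listed at between 0.658 and 1.95 normalized counts in all 8 samples, which limits what can be said about ferritin heavy chain RNA.

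Cells take up transferrin-bound iron through the transferrin receptor TFRC, carry it out of the endosome with the divalent metal transporter SLC11A2 (DMT1), and store it in ferritin, a shell built of FTH1 and FTL chains. NCOA4 delivers ferritin to lysosomes for breakdown, and SLC40A1 (ferroportin) exports iron. The hormone hepcidin closes ferroportin, and ERFE (erythroferrone) lowers the production of hepcidin. The iron regulatory proteins ACO1 (IRP1) and IREB2 (IRP2) bind hairpins called iron-responsive elements (IRE) when iron is scarce. Binding in a 5′ untranslated region (UTR) blocks translation, which leaves RNA counts as they are, and binding in the 3′ UTR of TFRC protects the RNA from decay.

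Hairpins of the IRE form in these genes are shown, since an IRE acts on translation in a 5′ UTR and on RNA stability in the 3′ UTR of TFRC. GENCODE 44 transcripts (GRCh38) were searched on the transcript strand for CNNNNN followed by CAGTGN, the loop, where the 5 bases before the loop pair with the 5 after it (G-T pairs allowed). The search found 7 sites in 4 members: 1 each in the 5′ UTR of FTL, FTH1 and SLC40A1, and 4 in the 3′ UTR of TFRC. Each is printed 5′ to 3′ with T for U, over 29 bases, and capitals mark the loop of the hairpin.
FTL: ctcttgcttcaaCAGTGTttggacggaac
FTH1: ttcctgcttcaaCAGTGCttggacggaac
SLC40A1: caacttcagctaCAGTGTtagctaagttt
TFRC site A: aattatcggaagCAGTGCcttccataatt
TFRC site B: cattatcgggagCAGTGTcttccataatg
TFRC site C: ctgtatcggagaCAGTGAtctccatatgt
TFRC site D: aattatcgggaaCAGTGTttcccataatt
The FTL site lies at chr19:48965335-48965363 on the plus strand, the FTH1 site at chr11:61967574-61967602 and the SLC40A1 site at chr2:189580661-189580689, both on the minus strand. The TFRC sites lie on the minus strand of chromosome 3, from chr3:196050979-196051007 for site A to chr3:196050463-196050491 for site D, all in the last exon. Letters A to D follow the order along the transcript and are labels of this search only. Over the canonical transcripts of all genes, 0.102% of 19647 genes with a 5′ UTR and 0.623% of 19571 genes with a 3′ UTR held such a site, regions of any length counted. SLC11A2 held no match in these letters. The search allowed a single form of the hairpin, so that elements of another form would be missed in any member.

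The values are normalized counts on the CPM scale, on which each library is brought to a common size. Library depth ran from 1501563 reads in control 4 to 13953090 in control 1. The floor was set at 3 reads, which were worth 0.211 CPM in control 1, 1.48 in hLcn-2 sample 3 and 1.98 in control 4. Of 8 renal epithelial or carcinoma markers, 7 had values, from PAX2 at 1.32 to 5.29 CPM to VIM at 1302 to 2181 CPM, with PAX8 between 201 and 245 CPM. Of 12 markers of leukocytes, endothelium, red cells and hepatocytes, 2 had values, CD14 of at most 1.59 and ALB of at most 1.48 CPM. CA9 and the markers of other cells without a value were not found by name in the deposited table. Log2 fold changes are of hLcn-2 over control on log2(normalized count + 1), tested with limma, two-sided, over 15593 genes. Same-numbered samples deviated together from their group means (correlations across genes of 0.31 to 0.61), so a fit with the number as a block is given beside results that it changes.

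TFRC showed nearly the same level in both groups. Controls 1 to 4 had 367, 339, 413 and 350 CPM, and hLcn-2 samples 1 to 4 had 370, 360, 414 and 302 CPM. The groups overlapped almost fully, with N3 the highest in each group, and only N4 was lower after hLcn-2. The log2 fold change was -0.03 (95% interval -0.32 to 0.26, limma, adjusted p = 0.9999). With the replicate block its interval narrowed to -0.19 to 0.14, the narrowest of the 10 members.

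SLC11A2, which moves ferrous iron across the endosomal membrane, did not separate the groups either. Its controls had 91.0, 91.0, 145 and 81.0 CPM and its hLcn-2 samples 106, 94.2, 116 and 78.1 CPM. Control 3 stood above all other samples, and 2 of 4 pairs were higher after hLcn-2. Its log2 fold change was -0.03 (95% interval -0.44 to 0.39, limma, adjusted p = 0.9999), and without control 3 it was 0.15. With the replicate block and all samples, the interval narrowed to -0.23 to 0.18.

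**Figure D1:**
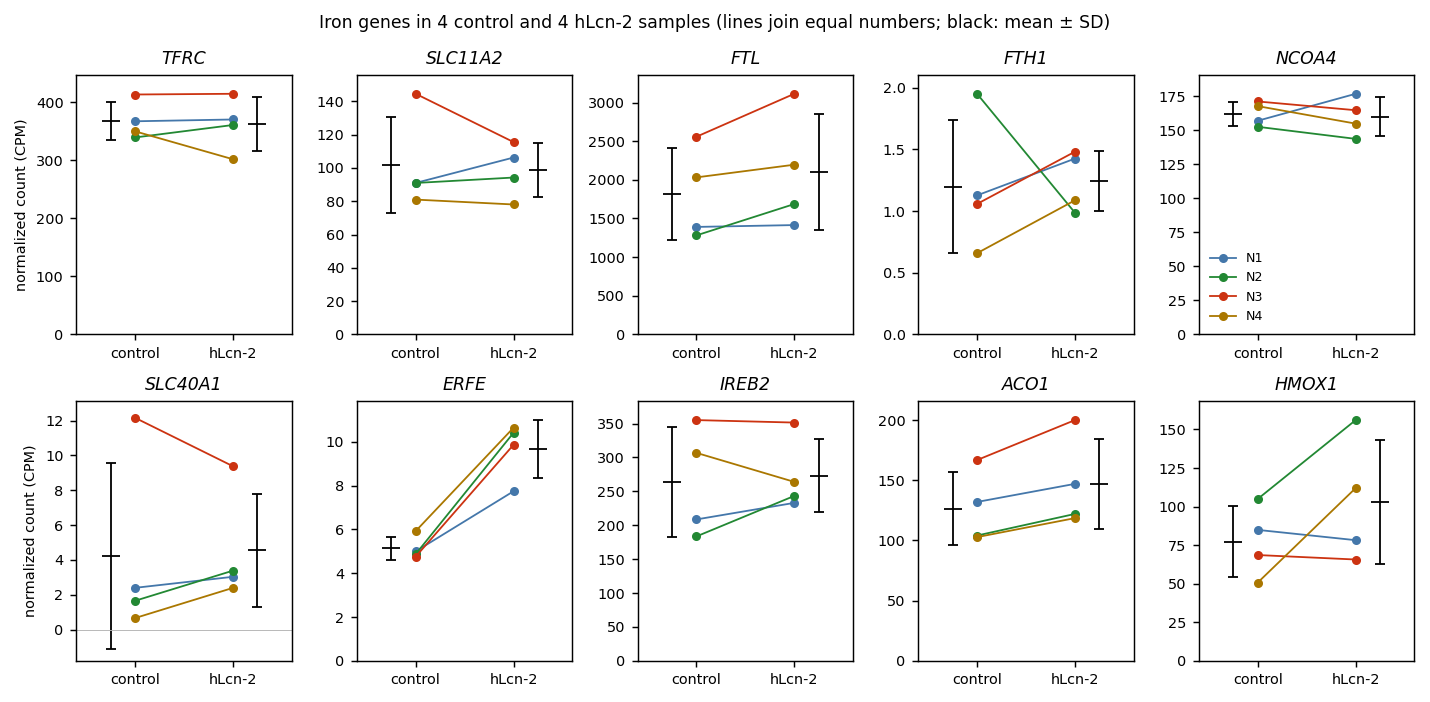
Normalized counts (CPM, linear axes from 0 or below) of the 10 iron genes in control and hLcn-2 samples, with a line for each of N1 to N4 and black bars for mean ± SD (n = 4). ERFE is the gene whose groups do not overlap, from 4.76 to 5.93 CPM in controls and from 7.75 to 10.7 CPM in hLcn-2 samples, while N3 is at the top of both groups for FTL, TFRC, IREB2, ACO1, SLC11A2 and SLC40A1.

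FTL, the ferritin light chain that helps iron to mineralise inside the shell, was the most counted of the 10 genes. Its controls had 1391, 1281, 2557 and 2031 CPM and its hLcn-2 samples 1415, 1687, 3113 and 2196 CPM. FTL was higher after hLcn-2 in 4 of 4 pairs, by 0.02 to 0.40 on the log2 scale, but the groups overlapped because N3 and N4 lay far above N1 and N2 in both. The log2 fold change was 0.20 (standard error 0.27, limma, adjusted p = 0.9999). The replicate block reduced the standard error to 0.081 and gave an unadjusted p of 0.0251 in limma, but the adjusted p was 0.328. The difference thus stayed short of the threshold in either fit. Without hLcn-2 sample 3, which left control 3 unmatched, the log2 fold change without the block was -0.0061. With the block and without 1 pair at a time, it lay between 0.14 and 0.26. FTL lies on chromosome 19 from 48965309 to 48966879, and 12.9% of the 75-nt windows of its last 500 nt had an exact copy elsewhere in GRCh38.

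FTH1, the heavy chain that oxidises ferrous iron for storage, was listed at the level of a few reads. Controls 1 to 4 had 1.13, 1.95, 1.06 and 0.658 CPM from 16, 26, 6 and 1 reads, and hLcn-2 samples 1 to 4 had 1.43, 0.986, 1.48 and 1.09 CPM from 16, 7, 3 and 5 reads. The counting interval alone reached from 0.0167 to 3.67 CPM in control 4 (exact Poisson, 95%), wider than the spread of the 8 samples. A log2 fold change of 0.06 was estimated (95% interval -0.49 to 0.60, limma, adjusted p = 0.9999). The quasi-likelihood test of edgeR on the recovered reads turned its sign (-0.11).

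The rows of ferritin pseudogenes were read beside FTH1, since near-identical copies can share its reads. The table held 6 FTH1 pseudogenes, out of 25 annotated in GENCODE 44, and 1 FTL pseudogene. The 6 together had between 4.45 and 19.9 CPM, more than FTH1 itself in each of the 8 samples. FTH1P16 alone reached 13.6 CPM in control 3 and FTH1P10 reached 2.96 CPM in hLcn-2 sample 3. These are processed copies of the heavy chain RNA, so that the reads under their names are uncertain as to origin.

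Features of the FTH1 locus that bear on read assignment were measured in the reference. FTH1 is transcribed from the minus strand of chromosome 11, between 61959718 and 61967634. Of the 75-nt windows in its last 500 nt, 19.2% had an exact copy elsewhere in GRCh38, at up to 6 places. Of the 4 genes annotated at those copies, 1 was a ferritin pseudogene. The share of windows with a copy was 0% in TFRC, SLC40A1, NCOA4, IREB2, ACO1, SLC11A2, HMOX1 and ERFE. In addition, 100% of these 500 nt lay under exons of BEST1 on the opposite strand, whereas the ends of the other 9 members had no such overlap. BEST1 had between 2.63 and 7.61 CPM. Whether the reads were counted by strand is not given in the sources used here. The part of either feature in the low FTH1 counts was not tested.

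**Figure D2:**
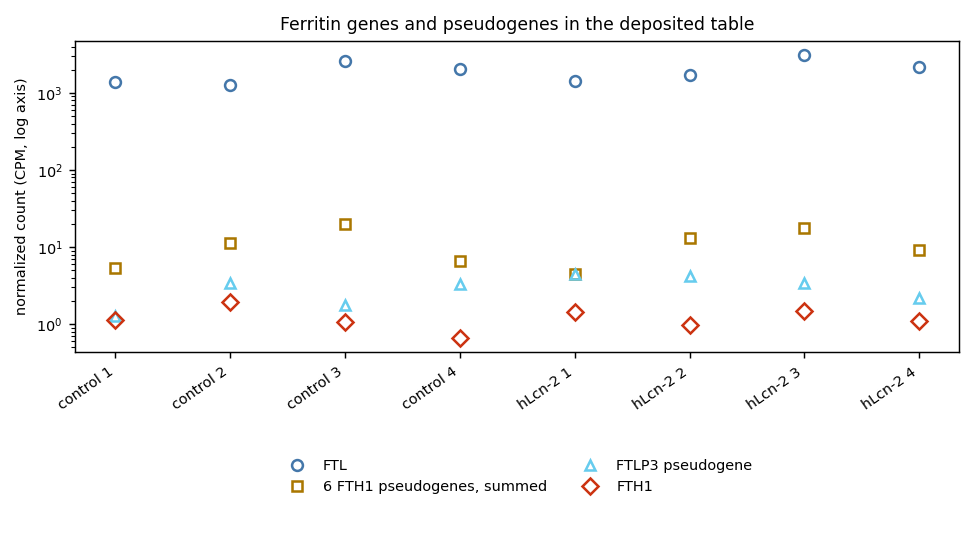
Normalized counts (CPM, log axis) of FTL, FTH1, the sum of 6 FTH1 pseudogenes and the FTL pseudogene FTLP3 in each of the 8 samples. FTH1 lies between 0.658 and 1.95 CPM, under the pseudogene sum in every sample, and FTL is at 1281 CPM or more throughout.

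NCOA4, the cargo receptor of ferritin breakdown, had 162 ± 8.79 CPM (SD, n = 4) in controls and 160 ± 14.1 CPM (SD, n = 4) after hLcn-2. Its controls had 157, 153, 171 and 168 CPM and hLcn-2 samples had 177, 144, 165 and 155 CPM. The ranges overlapped, with 1 of 4 pairs higher after hLcn-2. NCOA4 thus had a log2 fold change of -0.02 (95% interval -0.28 to 0.24, limma, adjusted p = 0.9999). The replicate block narrowed the interval to -0.19 to 0.15.

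Ratios within a library do not depend on how libraries were scaled, and the balance of receptor to ferritin RNA was compared in this way. The log2 ratio of TFRC to FTL was -2.25 ± 0.385 (SD, n = 4) without and -2.48 ± 0.481 (SD, n = 4) with hLcn-2. It was lower after hLcn-2 in each of the 4 pairs, by differences of -0.33 to -0.01, yet its ranges overlapped (two-sided exact permutation test, p = 0.514, adjusted over 3 ratios 0.943). Within pairs, the exact sign-flip test gave 0.125, the smallest p that 4 pairs allow. The ratios of TFRC to FTH1 and of FTH1 to FTL, which rest on 1 to 26 reads of FTH1, differed by -0.17 and -0.06 (exact permutation test, two-sided, p = 0.686 and 0.943, both 0.943 when adjusted).

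SLC40A1, the iron exporter, was a low gene with 1 to 69 reads per sample. Controls had 2.39, 1.65, 12.2 and 0.658 CPM and hLcn-2 samples had 3.03, 3.38, 9.38 and 2.39 CPM. Control 4 rested on 1 read, under the worth of 3 reads in that library. Both N3 samples stood apart at the top, and in N3 the hLcn-2 sample was the lower one, whereas in N1, N2 and N4 it was the higher one. Limma estimated a log2 fold change of 0.42 (95% interval -0.81 to 1.64, adjusted p = 0.9999). With the replicate block the interval narrowed to -0.13 to 0.96 (limma, adjusted p = 0.551). With the block and without 1 pair at a time, the estimate lay between 0.21 and 0.67. Without the block, it was -0.33 without the 2 shallowest libraries, control 4 and hLcn-2 sample 3. That fit left control 3 and hLcn-2 sample 4 without their partners. No difference of this exporter was called in any fit, at 1 to 69 reads per sample.

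ERFE, a secreted hormone best known from red cell precursors, separated the groups in full. Controls 1 to 4 had 5.00, 4.88, 4.76 and 5.93 CPM from 71, 65, 27 and 9 reads. The hLcn-2 samples 1 to 4 had 7.75, 10.4, 9.87 and 10.7 CPM from 87, 74, 20 and 49 reads. The 9 reads of control 4 gave an exact Poisson interval of 2.71 to 11.2 CPM, which covers the range of the hLcn-2 samples. The lowest hLcn-2 value lay above the highest control value (two-sided exact permutation test, p = 0.0286, which no split of 4 against 4 samples can undercut). In bulk RNA, more cells with ERFE and more ERFE RNA per cell cannot be told apart, nor can fewer cells and less RNA per cell for any member. Among all genes tested, 0.891% were higher after hLcn-2 without overlap, and ERFE was 1 of the 10 members.

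On average, ERFE had 5.14 ± 0.533 CPM (SD, n = 4) among controls, against 9.68 ± 1.33 CPM (SD, n = 4) among hLcn-2 samples. The pairs N1 to N4 differed by 0.54, 0.96, 0.92 and 0.75 on the log2 scale, so the smallest difference was in N1, which has the deepest libraries. The log2 fold change was 0.79 (standard error 0.20), with an unadjusted p of 0.00222 and an adjusted p of 0.9999 in limma. With the replicate block the adjusted p was 0.0873 in limma and 0.0201 in edgeR (quasi-likelihood test on the recovered reads), where the log2 fold change was 0.90. The call thus depended on the tool and on the block: ERFE was the 1 member called in any fit, by edgeR with the block, which called 1.49% of all genes tested. Limma called 0% of all genes without the block and 0.282% with it, none of them members. In limma, 1 member without the block (2.28% of all genes) and 4 with it (12.2%) had an unadjusted p under 0.05. With members chosen after earlier results were known, these counts are a description only. ERFE lies on the plus strand of chromosome 2 from 238158970 to 238168900, with 8 exons in its canonical transcript and no overlapping exon of another gene.

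IREB2 (IRP2), the iron regulatory protein that is degraded when iron is plentiful, differed more between numbers than between groups. Controls had 209, 183, 355 and 307 CPM and hLcn-2 samples had 233, 243, 352 and 264 CPM. It was higher after hLcn-2 in N1 and N2 and lower in N3 and N4. For IREB2 a log2 fold change of 0.08 was estimated (95% interval -0.38 to 0.55, limma, adjusted p = 0.9999). Its interval with the replicate block was -0.12 to 0.29.

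ACO1 (IRP1), which serves as cytosolic aconitase when it holds an iron-sulfur cluster, had a small but even difference within pairs. Controls had 132, 104, 167 and 103 CPM, and hLcn-2 samples had 147, 122, 200 and 119 CPM. The pairs N1 to N4 differed by 0.15, 0.23, 0.26 and 0.20 on the log2 scale, all of them higher after hLcn-2, although the ranges overlapped (two-sided exact permutation test, p = 0.371). The log2 fold change was 0.21 (standard error 0.20, limma, adjusted p = 0.9999). In fits without the block it was 0.054 without hLcn-2 sample 3, 0.12 without control 4, 0.13 without control 2 and 0.35 without control 3. It turned to -0.036 without the 2 shallowest libraries, control 4 and hLcn-2 sample 3. Each of these fits left at least 1 sample without its same-numbered partner. With the block and without 1 pair at a time, the log2 fold change lay between 0.20 and 0.23. With the block the standard error was 0.077 and the 95% interval 0.05 to 0.38, with an unadjusted p of 0.0163 and an adjusted p of 0.286 in limma. Relative to its value, the counting error of ACO1 was largest in control 4, whose 156 reads gave an exact Poisson interval of 87.2 to 120 CPM. ACO1, FTL and ERFE were the 3 of 10 members that were higher in 4 of 4 pairs, against 9.93% of all genes tested. No member was lower in 4 of 4, against 10.9%. The members were chosen with earlier results of these data known, so these counts are a description only.

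**Figure D3:**
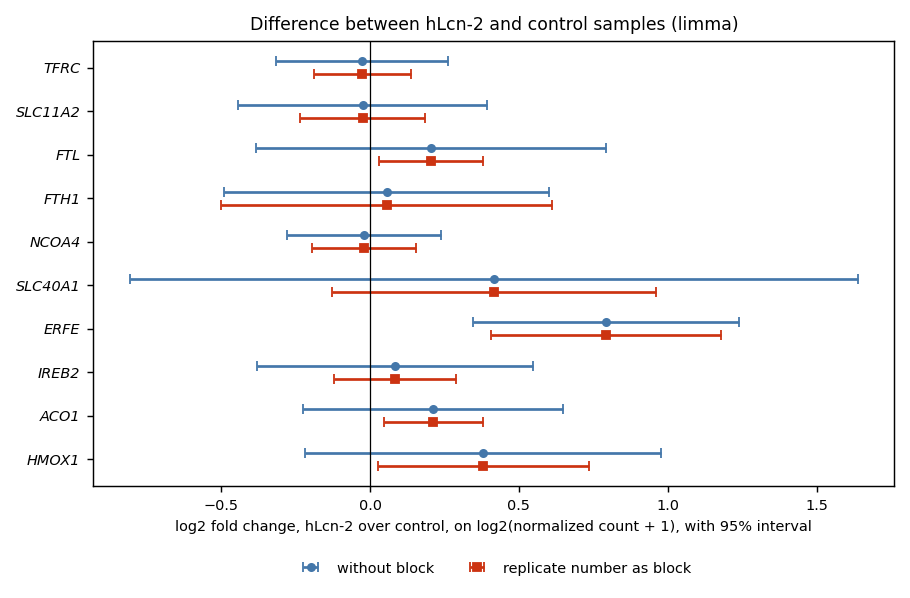
Log2 fold change of each member, hLcn-2 over control on log2(normalized count + 1), with its 95% interval from limma without a block (circles) and with the replicate number as a block (squares). The interval of ERFE lies above 0 in both fits (0.35 to 1.24 and 0.41 to 1.18), those of FTL, ACO1 and HMOX1 lie above 0 only with the block, and those of the other 6 members include 0 in both, all before adjustment for the genes tested.

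HMOX1 (heme oxygenase 1), which frees iron from heme and is a known NRF2 target, varied widely between pairs. Controls had 84.9, 105, 68.6 and 50.7 CPM and hLcn-2 samples had 78.2, 156, 65.7 and 112 CPM. It was higher after hLcn-2 in N2 and N4, by 0.57 and 1.13 on the log2 scale, and slightly lower in N1 and N3, by -0.12 and -0.06. The ranges of both groups overlapped (two-sided exact permutation test, p = 0.371), with 0.38 (standard error 0.27) as the log2 fold change, and with adjusted p-values of 0.9999 and 0.373 in limma without and with the block. That fold change was 0.15 without hLcn-2 sample 2 and 0.20 without control 4, and with the block it was 0.13 without the pair N4. The N4 difference rests on control 4, where 77 reads gave 50.7 CPM with an exact Poisson interval of 40.01 to 63.4. The interval stays under the 112 CPM of hLcn-2 sample 4.

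Across the 8 samples, the replicate number went with a larger share of the variation than the treatment did for 9 of the 10 members. The number has 3 of the 7 degrees of freedom and the treatment 1, so that with no effect of either they would take about 42.9% and 14.3%. Per degree of freedom, too, the number took more in 9 members. The number took 91.5% of the sum of squares of log2 values for FTL, 88.0% for ACO1, 87.1% for SLC40A1, 86.5% for SLC11A2, 85.8% for IREB2 and 82.9% for TFRC. Over all genes tested, the medians were 66.6% for the number and 6.15% for the treatment. ERFE was the exception, with 7.01% for the number and 89.2% for the treatment. For FTH1, 37.3% lay with the number, under the 42.9% of no effect, and 61.3% with neither. In ACO1 the treatment took 11.7% and only 0.386% was left over, the smallest remainder of the members. HMOX1 had 54.8% with the number, 16.2% with the treatment and 29.1% left over.

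**Figure D4:**
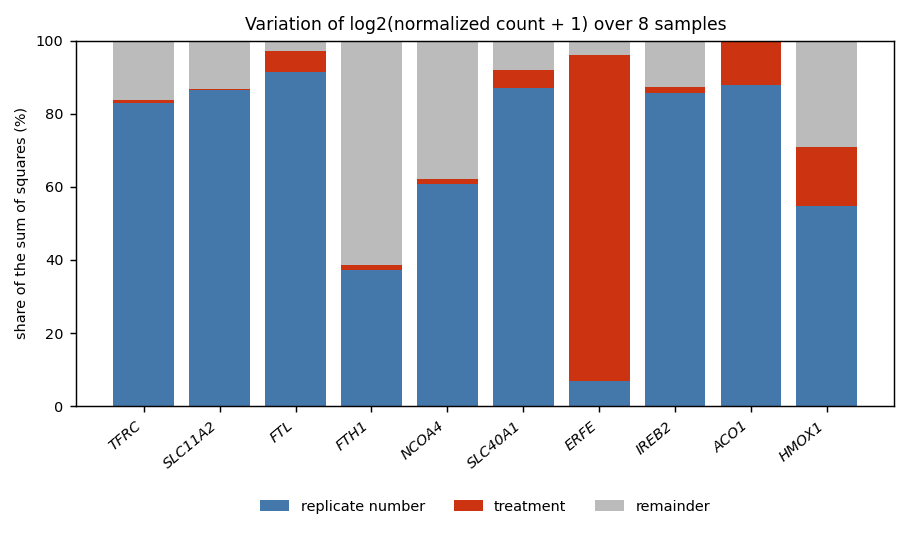
Share (%) of the sum of squares of log2(normalized count + 1) over 8 samples that goes with the replicate number, with the treatment and with neither, for each member. The number takes over 80% in TFRC, SLC11A2, FTL, SLC40A1, IREB2 and ACO1, and the treatment takes 89.2% in ERFE.

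The wider iron pathway was read from 8 lists of 61 genes, written from knowledge of the pathway, of which 53 had values and were tested. Without the members, 43 genes were left, with a median log2 fold change of 0.04 against 0.00083 over all genes tested. Limma called 0 of these 43 without the block (0 at an unadjusted p under 0.05), and with the block limma and edgeR called 0 each. Over all genes tested, limma called 0.282% and edgeR 1.49% with the block. At an unadjusted p under 0.05 with the block, 5 were higher and 1 lower, which is 13.95% of the 43 genes and near the 12.2% of all genes. The groups of 0 of the 43 genes did not overlap, against 1.88% of all genes. The direction was the same in 4 of 4 pairs for 7 higher and 2 lower genes, against 20.8% of all genes in either direction.

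Of the genes of these lists that were higher at an unadjusted p under 0.05 with the block, 4 are described, named after their values were seen. STEAP3, the endosomal reductase that works with TFRC, had 15.2 ± 7.34 CPM (SD, n = 4) in controls, against 22.2 ± 4.41 CPM (SD, n = 4) with hLcn-2. Its controls 1 to 4 had 20.4, 22.7, 9.34 and 8.56 CPM and its hLcn-2 samples 27.4, 23.2, 16.8 and 21.5 CPM. The fewest STEAP3 reads in a sample were 13. SLC39A14, another iron importer, had 117 ± 17.2 and 138 ± 25.6 CPM (SD, n = 4). The heme exporter FLVCR1 had 36.1 ± 2.01 and 44.5 ± 7.35 CPM (SD, n = 4). These 3 genes were higher after hLcn-2 in each pair, with adjusted p-values of 0.185, 0.286 and 0.317 in limma with the block. ISCU, the scaffold of iron-sulfur cluster assembly, had 121 ± 21.6 and 162 ± 48.8 CPM (SD, n = 4), with adjusted p-values of 0.154 in limma and 0.0592 in edgeR with the block.

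The genes whose log2 values over the 8 samples were most like those of 3 members were listed as a description. The 3 members were those with the smallest p without the block, and each was compared with the 9005 or 9006 other genes of at least 10 CPM. ERFE was most like COPS4 (r = 0.90), KCMF1 (r = 0.90) and JAG1 (r = 0.90). HMOX1 was most like TACO1 (r = 0.99), LMO4 (r = 0.96) and ZNF689 (r = 0.95), and ACO1 was most like MINPP1 (r = 0.99), HIF1AN (r = 0.98) and FAM210B (r = 0.98). All points share the same 8 libraries, and the highest of many correlations over 8 points are high by selection.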

How the data were processed

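Total RNA of 4 control and 4 hLcn-2 samples was sequenced from QuantSeq 3′ mRNA libraries with unique molecular identifiers (UMI), single-end for 75 cycles. The authors aligned reads to GRCh38 with STAR, collapsed them by UMI, counted them with HTSeq and removed genes without counts. Versions of these tools and the annotation are not given in the sources used here. The deposited values are a scaled signal, CPM of a library size adjusted by a factor of 0.970 to 1.06. All 134256 values were whole multiples of the worth of 1 read (tolerance 0.01), which gave the reads. In 1 cell a decimal comma was read as a decimal point.

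Limma 3.58.1 in R 4.3.3 was run with an intensity trend on log2(normalized count + 1), on genes that reached 1 CPM in 2 or more samples, without a block and with Benjamini-Hochberg adjustment. EdgeR 4.0.16 and DESeq2 1.42.0 were run on the recovered reads. The numbers were taken to pair the samples because each of the 4 same-numbered pairs correlated by over 0.1 (0.31 to 0.61, mean 0.50). Permutation tests enumerated 70 regroupings. Models were tested on simulated data. Exact Poisson intervals and floors cover counting error only, whereas the limma intervals rest on the spread between samples. The members and lists were chosen with earlier results of these data known. Some genes of the wider lists are not reported here. Named are the members, genes of the wider lists called or without overlap, the 3 genes most like 3 members, and ferritin pseudogenes. A further 4 genes of the wider lists fall outside this rule and were chosen after their values were seen. The alternatives were other pseudocounts, filters, scalings and tools, no trend, the block, and leaving out samples.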

Additional observations from a re-analysis of the deposited data

Results flagged for a closer look

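Among 26 sets of 4 same-group samples, of members and of ratios, 3 held a value that stood apart from the rest by Dixon's rule. For normal values chance gives about 1.3 (1 in 20). The sets share libraries and the ratios reuse member genes, so the count is a description only. For SLC40A1 the values that stood apart were control 3 (12.2 CPM) and hLcn-2 sample 3 (9.38 CPM). Their distance to the next value took up 0.849 and 0.858 of the range. For SLC11A2 it was control 3 (145 CPM), with 0.842 of the range. All 3 values were the highest of their group and came from samples numbered 3.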

How the results depend on the processing

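ERFE stayed higher under each alternative run, with log2 fold changes of 0.75 to 0.89 without single samples, and was called in edgeR with the replicate block (0.90) but in no other fit. DESeq2 with the block gave it an unadjusted p of 0.00135 and no adjusted p. HMOX1 kept its direction throughout (0.15 to 0.57 without single samples).

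Without the block, limma, edgeR and DESeq2 called 0 genes (355, 324 and 284 at an unadjusted p under 0.05), and so did the other scalings, pseudocounts and filters and each fit without a single sample. With the replicate block, limma called 44, DESeq2 173 and edgeR 233 genes, and edgeR called 1 member. With the block and without the pair N1, N2, N3 or N4, limma called 14, 3, 0 and 58 genes, and 0 members. The block changed no other call of a member.

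The sign turned for 8 members under some alternative. FTH1 was at -0.11 in edgeR, -0.075 in edgeR with the block and -0.11 in DESeq2, SLC40A1 at -0.12 in edgeR, and SLC11A2 at 0.0029 in edgeR with the block. Without the 2 shallowest libraries, an alternative chosen after seeing the data, FTH1 was at -0.12, SLC40A1 at -0.33 and ACO1 at -0.036. With the block, leaving out N2 gave 0.00042 for NCOA4 and -0.024 for IREB2, leaving out N3 gave -0.017 for FTH1 and 0.073 for SLC11A2, and leaving out N4 gave -0.037 for FTH1, 0.035 for TFRC and 0.0099 for NCOA4. Without single samples, log2 fold changes lay between -0.0061 and 0.39 for FTL, -0.070 and 0.21 for FTH1, -0.095 and 0.057 for TFRC, 0.024 and 1.02 for SLC40A1, -0.070 and 0.029 for NCOA4, -0.073 and 0.24 for IREB2, 0.054 and 0.35 for ACO1, and -0.12 and 0.15 for SLC11A2. The difference of the log2 ratio then lay between -0.48 and 0.062 for TFRC to FTH1, -0.41 and -0.089 for TFRC to FTL, and -0.39 and 0.36 for FTH1 to FTL. With the block and without 1 pair at a time, FTL lay between 0.14 and 0.26 and ACO1 between 0.20 and 0.23. SLC40A1 then lay between 0.21 and 0.67, HMOX1 between 0.13 and 0.54, and ERFE between 0.74 and 0.88. The causes were not tested.

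Low counts limit FTH1 and SLC40A1, which had as little as 1 read in a sample, and the filter on a mean of 10 CPM removed both together with ERFE. For FTH1 the counts were low in the deepest libraries too, with 16 reads in control 1 and 26 in control 2.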
